A study of Homo sapiens with 6 samples.

Results

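The genes described here are 44 genes of mitosis and the spindle, read in the human breast cancer line MDA-MB-231, which is of the basal-like subtype. They were taken by symbol from a fixed list, with Ensembl identifiers matched through GENCODE 29, and all 44 were among the 65198 rows of the expression table. In shHOTAIR cells doxycycline switched on a hairpin that targets the long non-coding RNA HOTAIR, and in shCtrl cells a hairpin of scrambled sequence. Doxycycline at 1 µg/ml was given to both for 96 h, and poly(A)-selected RNA was sequenced from 3 independent repeats of each. The labels name 1 derivative of the line per group, so a difference between the hairpins and a difference between the derivatives cannot be told apart.

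Cells enter mitosis when CDK1, bound to a cyclin, is switched on by CDC25 phosphatases, and kinases of the Aurora and Polo families then drive centrosome maturation and spindle assembly. Kinetochores, built on centromeres marked by CENPA, bind the microtubules, and the spindle checkpoint holds back the anaphase-promoting complex (APC/C) until every kinetochore is attached. The APC/C and its activator CDC20 then release separase to split the sister chromatids, and kinesins, the central spindle and the midbody complete the division. Most of these genes are transcribed in late G2 and M under the MuvB complex, B-MYB and FOXM1, which act through CHR elements and CCAAT boxes near the start site, and their mRNAs are therefore widely read as markers of cycling cells.

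Expression was given as FPKM, a fragment count scaled by transcript length and library depth. Differences between groups are on the log2(FPKM + 1) scale, shHOTAIR minus shCtrl, from a limma fit of the 15934 genes averaging 1 FPKM or more. A gene is called higher or lower where its Benjamini-Hochberg adjusted p was under 0.05. All 44 genes passed the expression minimum, with means of 10.4 FPKM for ESPL1, the lowest, to 416 FPKM for CCNB1, the highest.

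HOTAIR itself was at 0, 0 and 0.0113 FPKM in the shHOTAIR libraries and at 0, 0.0128 and 0.0132 FPKM in the shCtrl libraries. The p of an exact two-sided permutation test was 0.4 (3 against 3 libraries cannot go below 0.1), so its loss could not be checked at this depth. The number of fragments per library is not given. From the spacing of low values, the value of 1 fragment in FPKM, with shCtrl 1 set to 1, was put at 0.595 to 0.717 in the shHOTAIR libraries and 0.812 to 1 in the shCtrl libraries. A smaller value would go with a deeper library, but 478 to 601 of 2184 to 2352 low genes shared the spacing, so relative depth is uncertain. VIM, CD44, KRT8 and KRT18 were expressed, and EPCAM, CDH1, ESR1 and PGR averaged under 1 FPKM, out of 10 genes used to check the line. These 10 summed to 1216 to 1443 FPKM in shHOTAIR and 1680 to 1784 FPKM in shCtrl. Of the 6 that averaged 1 FPKM or more, 3 were called higher, 1 was called lower and 2 were not called. VIM (vimentin) fell by 1.27 on the log2 scale (limma adjusted p = 0.000616). It lies on chromosome 10, where most genes were lower, as described further on. GATA3, also among the 10 and on that chromosome, had a log2 change of 0.52. The keratins KRT8 and KRT18 rose by 0.75 and 0.62 (limma adjusted p = 0.0127 and 0.00706). Of the markers of other cell types, 5 of 6 leukocyte, 4 of 5 endothelial and 5 of 7 fibroblast genes averaged under 1 FPKM. The leukocyte genes summed to 16.1 to 19.5 FPKM per library in shHOTAIR and 21.2 to 22.1 FPKM in shCtrl. Most of that sum came from the 1 leukocyte gene tested, which averaged 19.3 FPKM. Its log2 change was -0.24 and it was not called. The endothelial genes summed to 2.23 to 3.00 FPKM in shHOTAIR and 1.59 to 1.97 FPKM in shCtrl, and the fibroblast genes to 4.42 to 5.94 FPKM in shHOTAIR and 2.66 to 3.42 FPKM in shCtrl. Their part in the results was not tested.

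The promoters of these genes held the motifs of G2 and M genes more often than promoters at large. In the RefSeq promoter table (GRCh38.p14, from 250 bases before to 50 bases after the start), 37 of the 44 genes had an entry. TTTGAA, the core of the CHR element, was found on either strand in 28 of the 37 (75.7%), against 18.2% of all 27305 genes in the table. CCAAT, the box bound by NF-Y, was found on either strand in 31 of the 37 (83.8%), against 39.7% of all genes, and 24 genes held both. TTCGAA, searched as another form of the CHR core, was found in 3 of the 37 (8.11%), against 1.82% of all genes. By promoter, TTTGAA was in 66.0% of the 47 promoters of these genes, against 15.2% of all 35116, and CCAAT in 76.6%, against 34.6%. A match describes the letters in the window and is not evidence of binding.

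The 6 stretches below show the letters in genes that stand for the outcomes described further on: CCNA2 and ECT2 were called higher, KIF11 and CEP55 were called lower, and CDK1 and MKI67, on the same chromosome as KIF11 and CEP55, were not called. Each is 170 bases from RefSeq GRCh38.p14, written 5′ to 3′ on the strand of the gene and ending before its first annotated exon, with TTTGAA and CCAAT or their reverse complements TTCAAA and ATTGG in capitals.
CCNA2, chr4:121823934-121824103, minus strand: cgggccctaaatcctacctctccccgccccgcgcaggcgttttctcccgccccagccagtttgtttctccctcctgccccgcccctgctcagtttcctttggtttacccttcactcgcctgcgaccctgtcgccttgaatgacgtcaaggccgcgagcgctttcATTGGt
ECT2, chr3:172750512-172750681, plus strand: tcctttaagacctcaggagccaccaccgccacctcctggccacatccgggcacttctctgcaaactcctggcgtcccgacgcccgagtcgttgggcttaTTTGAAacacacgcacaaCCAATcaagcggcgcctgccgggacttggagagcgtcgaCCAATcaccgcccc
KIF11, chr10:92592960-92593129, plus strand: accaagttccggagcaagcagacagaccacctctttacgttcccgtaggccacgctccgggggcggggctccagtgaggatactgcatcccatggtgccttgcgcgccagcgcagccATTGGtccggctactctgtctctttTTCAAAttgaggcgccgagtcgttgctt
CEP55, chr10:93496442-93496611, plus strand: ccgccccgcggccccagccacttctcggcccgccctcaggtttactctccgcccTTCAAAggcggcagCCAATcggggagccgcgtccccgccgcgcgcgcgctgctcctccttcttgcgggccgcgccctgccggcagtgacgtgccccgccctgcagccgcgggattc
CDK1, chr10:60778161-60778330, plus strand: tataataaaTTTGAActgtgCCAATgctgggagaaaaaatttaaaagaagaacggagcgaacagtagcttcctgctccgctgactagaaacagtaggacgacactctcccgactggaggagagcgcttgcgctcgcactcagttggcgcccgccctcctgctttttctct
MKI67, chr10:128126424-128126593, minus strand: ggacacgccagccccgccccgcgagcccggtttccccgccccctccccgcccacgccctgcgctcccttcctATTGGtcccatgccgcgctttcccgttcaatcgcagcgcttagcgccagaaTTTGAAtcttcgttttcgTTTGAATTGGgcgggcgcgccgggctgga
Positions are counted from the RefSeq start, which lies 50 bases beyond the end of the CCNA2 stretch, 44 beyond that of ECT2 and directly after the other 4. TTTGAA began 115 bases before the start in ECT2, 28 in KIF11, 116 in CEP55 and 161 in CDK1, with the first and last of these on the strand of the gene and the middle pair on the other strand. MKI67 held 2 copies, 47 and 29 bases before the start, and its downstream copy shares letters with a CCAAT box on the other strand. CCNA2 showed a single CCAAT box, 56 bases before the start and on the other strand, and no TTTGAA. The motifs were present in genes of each outcome. Of the 28 genes with TTTGAA, 5 were called higher and 2 lower with a median log2 change of 0.06, and of the 9 without it, 2 were called higher and 0 lower with a median of 0.14. Among all genes tested 11.5% were called higher and 12.4% lower. Genes without a promoter entry, such as BUB3, which was called lower, are in neither count.

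Of the 44 genes, 7 were called higher in shHOTAIR and 3 lower. The 7 were CCNA2, CDCA8, PRC1, MAD2L1, ECT2, CENPE and KIF14, with log2 changes of 0.27 to 0.62. The 3 were BUB3, CEP55 and KIF11, with log2 changes of -0.77 to -0.34, and all 3 lie on chromosome 10. Among all genes tested 11.5% were called higher and 12.4% lower, and 23.8% were called in either direction. The 44 genes had 15.9% higher, 6.82% lower and 22.7% in either direction, a share near that of genes at large. Of the protein-coding genes tested, 13.8% were called higher, 14.9% lower and 28.7% in either direction. The median log2 change of the 44 genes was 0.06, against -0.03 over all genes tested, and 27 of the 44 changes were positive. The count of 7 fell to 3 without shHOTAIR 3, without shCtrl 1 or without shCtrl 3.

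The groups were apart in more genes than were called. All 3 shHOTAIR values lay above all 3 shCtrl values for 15 of the 44 genes, where 19.9% of all genes tested did so, and below them for 4, where 23.2% did so. For the other 25 genes the groups overlapped. The 44 genes summed to 5532, 5414 and 5654 FPKM in the shHOTAIR libraries and to 5169, 5509 and 5438 FPKM in the shCtrl libraries, and these sums overlapped. Their median FPKM was 82.4, 78.6 and 82.9 in the shHOTAIR libraries and 91.0, 85.9 and 90.7 in the shCtrl libraries. The median level was thus lower in every shHOTAIR library while the median of the changes was slightly above 0. In bulk RNA, a change in the share of cells in G2 and M and a change in RNA per cell cannot be told apart.

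**Figure D1:**
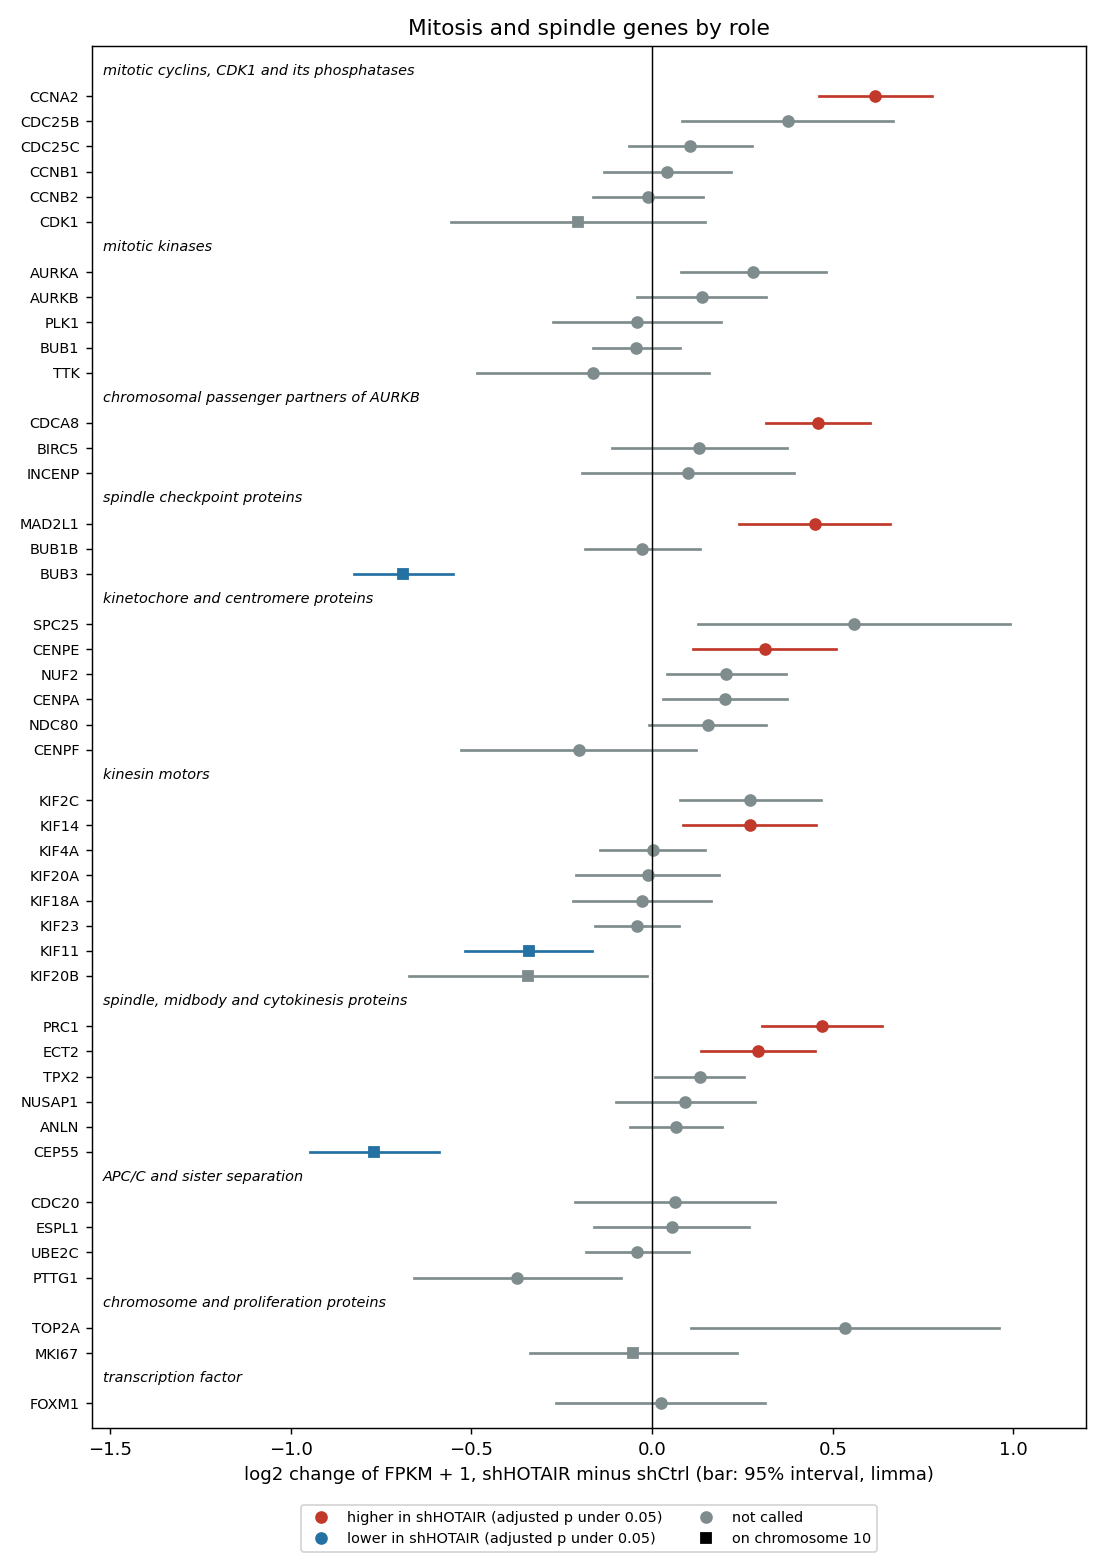
Log2 change of FPKM + 1 (shHOTAIR minus shCtrl, x axis) of the 44 genes by role, with bars for the 95% interval from limma and squares for the 6 genes on chromosome 10. The 7 genes called higher are spread over 6 of the 10 roles, and the 3 called lower are all squares.

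The counts by role that follow rest on few genes. They can be read against the 11.5% higher and 12.4% lower of all genes tested, and the 13.8% and 14.9% of protein-coding genes. Among the cyclins, CDK1 and its phosphatases, 1 of 6 genes was called. CCNA2 (ENSG00000145386, chromosome 4, 121816444 to 121823933, minus strand on GRCh38) encodes cyclin A2, which works from S phase to early mitosis. It was at 55.9, 52.0 and 51.2 FPKM in shHOTAIR 1, 2 and 3 and at 32.4, 36.1 and 34.1 FPKM in shCtrl 1, 2 and 3. The groups were well apart, with a log2 change of 0.62 (SE 0.0628, limma adjusted p = 0.00248). It was the largest rise of the 44 genes, and the call held with each library left out. EXOSC9, which overlaps CCNA2 on the other strand at 86.2 FPKM, had a log2 change of 0.31 (limma adjusted p = 0.0277). With the strand setting not given, reads from the stretch they share cannot be told apart, and its extent within exons was not measured. In all, 10 of the 44 genes overlap a gene listed at 10% or more of their own FPKM.

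The B-type cyclins, which partner CDK1 in mitosis, were not called. CCNB1 had 439, 402 and 425 FPKM in the shHOTAIR libraries and 384, 406 and 440 FPKM in the shCtrl libraries, overlapping throughout (log2 change 0.04, 95% interval -0.13 to 0.22, limma adjusted p = 0.699). CCNB2 had a log2 change of -0.01, with an interval of -0.16 to 0.14. CDC25B, a phosphatase that activates CDK1 at mitotic entry, had 124, 128 and 161 FPKM in shHOTAIR and 113, 98.0 and 105 FPKM in shCtrl. Its groups were apart, and its log2 change of 0.38 missed the threshold (limma adjusted p = 0.0726). CDC25C, its relative, had a log2 change of 0.11 (limma adjusted p = 0.322).

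None of the 5 mitotic kinases was called. AURKA, the kinase of centrosomes and spindle poles, came nearest with 167, 140 and 152 FPKM in the shHOTAIR libraries and 121, 133 and 123 FPKM in the shCtrl libraries. All 3 shHOTAIR values were the higher ones, with a log2 change of 0.28 (limma adjusted p = 0.0583). AURKB, the catalytic subunit of the chromosomal passenger complex, had a log2 change of 0.14, PLK1, the Polo kinase, -0.04, BUB1, a kinetochore kinase of the checkpoint, -0.04, and TTK, the kinase that starts checkpoint signalling, -0.16. For BUB1 the 95% interval ran only from -0.16 to 0.08.

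Of the 3 partners of AURKB in the passenger complex, 1 was called. CDCA8 (borealin, ENSG00000134690, chromosome 1, 37692418 to 37709719, plus strand) had 47.5, 45.5 and 46.0 FPKM in shHOTAIR and 31.3, 34.7 and 34.3 FPKM in shCtrl. The lowest shHOTAIR value exceeded the highest shCtrl value by far more than the spread within either group (log2 change 0.46, SE 0.0577, limma adjusted p = 0.00454). BIRC5 (survivin) had a log2 change of 0.13 and INCENP, the scaffold, 0.10. Neither passed the test.

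Of the 3 spindle checkpoint genes, 1 was called higher and 1 lower. MAD2L1 (ENSG00000164109, chromosome 4, 120055608 to 120067074, minus strand) encodes MAD2, which binds CDC20 to hold it inactive, and had 157, 133 and 146 FPKM in the shHOTAIR libraries and 98.7, 113 and 106 FPKM in the shCtrl libraries. Its groups did not overlap, and it rose by 0.45 on the log2 scale (SE 0.0842, limma adjusted p = 0.0154). Without shHOTAIR 3, shCtrl 1 or shCtrl 3 its call was lost, with limma adjusted p up to 0.0573. BUB3 (ENSG00000154473, chromosome 10, 123154277 to 123170467, plus strand), the WD-repeat protein that brings BUB1 and BUBR1 to kinetochores, had 291, 269 and 289 FPKM in shHOTAIR and 445, 453 and 471 FPKM in shCtrl. It averaged 283 ± 12.3 FPKM in shHOTAIR and 456 ± 13.2 FPKM in shCtrl (SD, n = 3 each), and fell by 0.69 on the log2 scale (limma adjusted p = 0.00137), the smallest p of the 44 genes. BUB1B, which encodes BUBR1, had a log2 change of -0.03 with an interval of -0.19 to 0.13.

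At the kinetochore and centromere 1 of 6 genes was called. For 4 of the 6 all shHOTAIR values lay above all shCtrl values, where 19.9% of all genes tested did so. CENPE (ENSG00000138778, chromosome 4, 103105806 to 103198409, minus strand), the kinetochore motor that brings chromosomes to the spindle equator, had 54.5, 52.1 and 49.98 FPKM in shHOTAIR and 41.8, 45.8 and 38.2 FPKM in shCtrl. It rose by 0.31 on the log2 scale (SE 0.0796, limma adjusted p = 0.0405), a call lost with any 1 library but shCtrl 2 left out (limma adjusted p up to 0.11). SPC25, a subunit of the NDC80 complex that grips microtubules, had 74.8, 55.7 and 48.9 FPKM in shHOTAIR and 35.6, 44.6 and 39.0 FPKM in shCtrl. Its log2 change of 0.56 was the second largest upward, but the wide spread in shHOTAIR left it uncalled (limma adjusted p = 0.0708). NUF2, of the same complex, had 88.9, 81.0 and 84.4 FPKM in the shHOTAIR libraries and 68.6, 77.7 and 74.0 FPKM in the shCtrl libraries. Those groups were apart too, with a log2 change of 0.21 (limma adjusted p = 0.0784). NDC80 had a log2 change of 0.15, CENPA, the centromeric histone H3 variant, 0.20, and CENPF, a large outer kinetochore protein, -0.20.

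Of 8 kinesin motors, 1 was called higher and 1 lower. KIF14 (ENSG00000118193, chromosome 1, 200551497 to 200620734, minus strand), a motor of the midbody, had 24.6, 22.0 and 22.4 FPKM in shHOTAIR and 18.1, 20.4 and 18.2 FPKM in shCtrl. Its rise of 0.27 on the log2 scale sat at the edge of the threshold (SE 0.074, limma adjusted p = 0.0495) and was lost with any library left out, with limma adjusted p up to 0.144. KIF11 (ENSG00000138160, chromosome 10, 92593286 to 92655395, plus strand), the Eg5 motor that pushes spindle poles apart, had 53.2, 47.4 and 49.1 FPKM in the shHOTAIR libraries and 59.6, 67.4 and 63.5 FPKM in the shCtrl libraries. It fell by 0.34 on the log2 scale with no overlap of the groups (SE 0.0708, limma adjusted p = 0.0217). Without shHOTAIR 2, shHOTAIR 3, shCtrl 2 or shCtrl 3 that call was lost, with limma adjusted p up to 0.0701.

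The other 6 kinesins were not called. KIF2C (MCAK), which depolymerizes microtubules at centromeres, had 327, 296 and 305 FPKM in shHOTAIR and 232, 269 and 267 FPKM in shCtrl. Its groups were apart and its log2 change was 0.27 (limma adjusted p = 0.0581). KIF20B, a motor of the central spindle and midbody on chromosome 10, had 60.6, 47.4 and 46.7 FPKM in shHOTAIR and 58.0, 72.7 and 65.8 FPKM in shCtrl. The groups overlapped through shHOTAIR 1 and shCtrl 1, and the log2 change was -0.34 (limma adjusted p = 0.123). KIF4A, KIF18A, KIF20A and KIF23, which work on chromosome arms, at plus ends and on the central spindle, had log2 changes of -0.04 to 0.00. Their 95% intervals stayed within 0.22 of 0 on the log2 scale.

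Spindle, midbody and cytokinesis proteins held 2 genes called higher and 1 lower, of 6. PRC1 (ENSG00000198901, chromosome 15, 90966038 to 90995629, minus strand), which bundles the antiparallel microtubules of the central spindle, had 326, 346 and 369 FPKM in the shHOTAIR libraries and 238, 259 and 254 FPKM in the shCtrl libraries. With the groups well apart, it rose by 0.47 on the log2 scale (SE 0.0671, limma adjusted p = 0.00668). The antisense gene PRC1-AS1, at 63.0 FPKM, rose by 0.22 on the log2 scale (limma adjusted p = 0.0328), and reads from the stretch the pair shares cannot be told apart. ECT2 (ENSG00000114346, chromosome 3, 172750682 to 172821474, plus strand), the exchange factor that activates RhoA for the contractile ring, had 211, 211 and 222 FPKM in shHOTAIR and 174, 187 and 164 FPKM in shCtrl. It rose by 0.29 on the log2 scale (SE 0.0632, limma adjusted p = 0.0244), a call lost without shHOTAIR 2, shHOTAIR 3, shCtrl 1 or shCtrl 3 (limma adjusted p up to 0.0712).

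CEP55 (ENSG00000138180, chromosome 10, 93496632 to 93529092, plus strand), which recruits the abscission machinery to the midbody, had 69.2, 75.0 and 71.1 FPKM in shHOTAIR and 117, 134 and 119 FPKM in shCtrl. This was the largest fall of the 44 genes, with a log2 change of -0.77 (SE 0.0719, limma adjusted p = 0.00199), and the call held with each library left out. RNA5SP323, a pseudogene that overlaps it on the other strand, was listed at 34.3 FPKM with a log2 change of -0.28 (limma adjusted p = 0.531). Reads from the stretch the pair shares cannot be told apart. TPX2, the activator of AURKA on the spindle, had groups apart with a log2 change of 0.13 (limma adjusted p = 0.113). NUSAP1, a microtubule bundling protein, had a log2 change of 0.09 and ANLN (anillin), the scaffold of the contractile ring, 0.07, and neither passed the test.

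None of the 4 genes of the APC/C and sister separation was called. PTTG1 (securin), which holds separase inactive until anaphase, had 189, 223 and 254 FPKM in the shHOTAIR libraries and 273, 283 and 302 FPKM in the shCtrl libraries. All shHOTAIR values were the lower ones, with a log2 change of -0.37 (SE 0.116, limma adjusted p = 0.071). ESPL1, separase itself, had 10.9, 11.3 and 9.64 FPKM in shHOTAIR and 11.1, 10.0 and 9.47 FPKM in shCtrl, overlapping throughout (log2 change 0.05, limma adjusted p = 0.689). CDC20 had a log2 change of 0.06 and UBE2C, the ubiquitin-conjugating enzyme of the APC/C, -0.04. Near-identical copies carried little signal: PTTG2, PTTG3P, KIF4B and BUB3P1 reached at most 0.146 FPKM in any library.

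TOP2A, the topoisomerase that untangles sister chromatids, had 290, 317 and 249 FPKM in shHOTAIR and 154, 225 and 216 FPKM in shCtrl. The groups were apart but shCtrl 1 lay below the other shCtrl libraries, and the log2 change of 0.53 (SE 0.172) was not called (limma adjusted p = 0.0776). MKI67, the Ki-67 protein that coats mitotic chromosomes and marks proliferating cells, had 66.4, 71.8 and 76.7 FPKM in shHOTAIR and 87.1, 68.3 and 68.6 FPKM in shCtrl. The groups overlapped, with a log2 change of -0.05 (limma adjusted p = 0.778). FOXM1, the transcription factor of G2 and M genes, had a log2 change of 0.02 with an interval of -0.27 to 0.31.

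For most of the 34 genes not called, large changes lay outside the 95% interval. In 27 of the 34 the interval stayed within 0.5 of 0 on the log2 scale, and in 17 of them the estimate itself was within 0.1 of 0. The 7 with wider reach were CDK1, CDC25B, SPC25, KIF20B, CENPF, TOP2A and PTTG1. The median coefficient of variation over the 44 was 6.94% in shHOTAIR and 5.76% in shCtrl, and over protein-coding genes 8.78% in shHOTAIR and 7.48% in shCtrl. The shCtrl repeats were not alike, since shCtrl 1 was the lowest of its group for 29 of the 44 genes and shCtrl 2 the highest for 25.

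The direction of change went with chromosome 10. The 6 genes there, by their GENCODE 29 positions, were BUB3, CDK1, KIF11, KIF20B, CEP55 and MKI67. All 6 had negative changes, 3 were called lower and 0 higher, and their median log2 change was -0.34. Of the 38 genes elsewhere, 7 (18.4%) were called higher and 0 lower, with a median of 0.10, where 14.2% of the 11144 protein-coding genes outside chromosome 10 were called higher and 12.9% lower. CDK1 (60778331 to 60794852, plus strand), the kinase at the centre of mitotic entry, had 164, 128 and 124 FPKM in the shHOTAIR libraries and 138, 177 and 164 FPKM in the shCtrl libraries. Its groups overlapped through shHOTAIR 1 and shCtrl 1, and its log2 change was -0.20 (SE 0.142, limma adjusted p = 0.352).

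Chromosome 10 as a whole was lower in shHOTAIR. Of its 443 protein-coding genes tested, 298 were called lower and 12 higher, and their median log2 change of -0.52 was the lowest of 23 chromosomes, with chromosome 18 next at -0.25. Every 20 Mb bin of the chromosome had a negative median, from -0.71 to -0.46. The mitotic genes of chromosome 10 lay on both sides of that median: CEP55 and BUB3 lay below it, and KIF11, KIF20B, CDK1 and MKI67 above it.

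**Figure D2:**
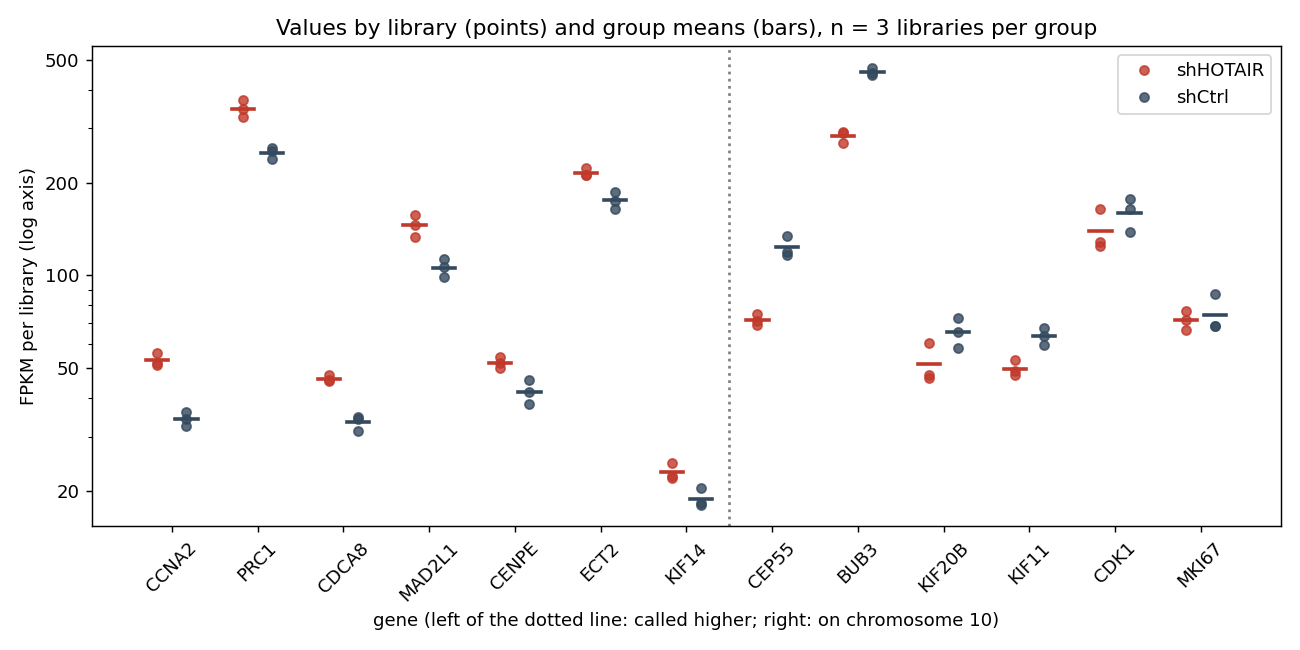
FPKM per library (log axis) of the 7 genes called higher and the 6 genes on chromosome 10, with points for the 3 libraries of each group and bars for the means. The shHOTAIR points lie above the shCtrl points for the genes left of the dotted line, below them for CEP55, BUB3 and KIF11, and among them for KIF20B, CDK1 and MKI67.

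Genes also moved with their neighbours outside chromosome 10. Each gene was set beside the mean log2 change of the 50 nearest protein-coding genes tested on its chromosome, which spanned 1.54 to 26.1 Mb. For the 7 genes called higher the neighbours' mean was 0.12 to 0.37, positive in all 7, and for the 3 called lower it was -0.46 to -0.42. For the 34 genes not called it was -0.51 to 0.37, and positive in 10. Chromosome 4 carried CCNA2, MAD2L1 and CENPE, all 3 called higher, with neighbours at 0.36, 0.37 and 0.34. Over the 44 genes the change of a gene and that of its neighbours had Pearson's r of 0.735 and Spearman's rho of 0.664. Outside chromosome 10 these were 0.580 and 0.502 (38 genes), and over 11571 protein-coding genes 0.469 and 0.453. These are correlations across genes that share the same 6 libraries and in part the same neighbours, so genes are not independent replicates. The sign of a gene and of its neighbours matched for 30 of the 44 (68.2%), close to the 67.5% of protein-coding genes. Outside chromosome 10 it matched for 24 of the 38 (63.2%), where it did for 66.5% of protein-coding genes.

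**Figure D3:**
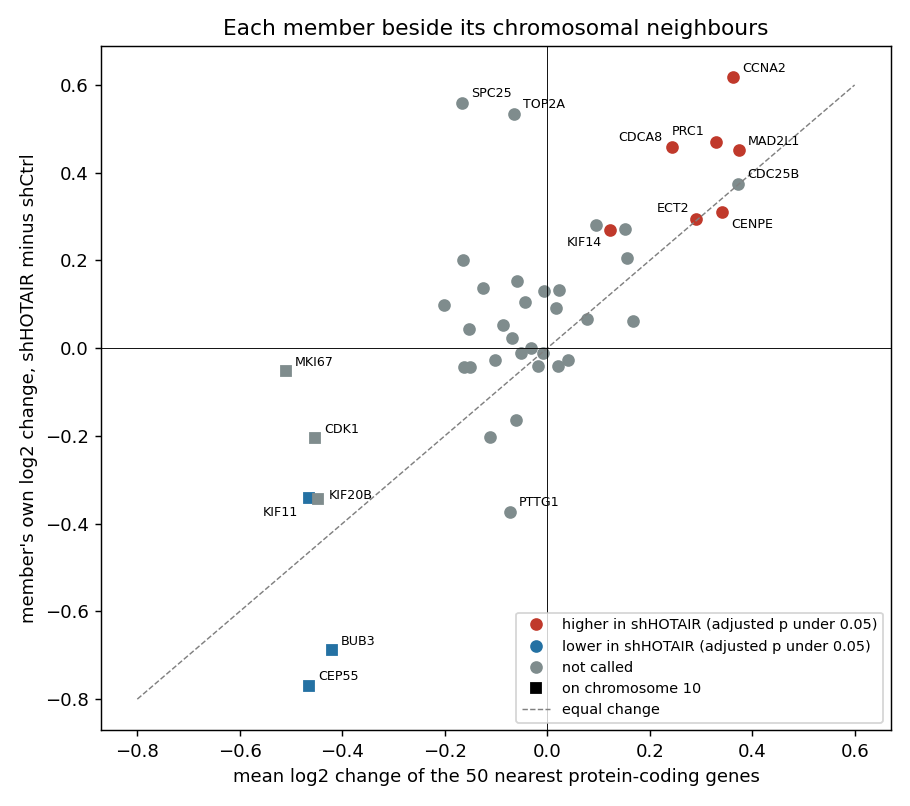
Log2 change of each of the 44 genes (y axis) against the mean log2 change of its 50 nearest protein-coding genes (x axis), shHOTAIR minus shCtrl, with the line of equal change dashed. The 7 genes called higher lie right of 0 and the 6 on chromosome 10 lie at -0.51 to -0.42 on the x axis, while SPC25 and TOP2A stand high beside neighbours slightly below 0.

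When each gene was measured relative to those neighbours in every library, a fit called regional centring here, 4 of the 44 genes were called higher and 1 lower, where 8.33% and 7.96% of the genes so tested were. Of the 10 genes called before, CCNA2 at 0.26 (limma adjusted p = 0.0438) and BUB3 at -0.27 (limma adjusted p = 0.0189) passed the threshold. SPC25, CENPA and MKI67, not called before, passed it at 0.73, 0.37 and 0.46 on the log2 scale (limma adjusted p = 0.029, 0.0196 and 0.0487). On 20 neighbours 5 of the 44 were called higher and 2 lower (8.03% and 7.76% of the genes so tested), and on 100 neighbours 4 higher and 2 lower (8.56% and 8.05%). Which genes passed depended on how many neighbours were used, and none of the 10 calls held on 50, 20 and 100 neighbours alike. On 20 neighbours CCNA2 was at 0.22 (limma adjusted p = 0.126) and BUB3 at -0.04 (limma adjusted p = 0.691), and on 100 they were at 0.25 and -0.22 (limma adjusted p = 0.0422 and 0.0386).

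CEP55 was at -0.30, -0.39 and -0.30 on 50, 20 and 100 neighbours, with limma adjusted p of 0.0502, 0.0313 and 0.0433. CDCA8 was at 0.22, 0.28 and 0.18, with limma adjusted p of 0.0672, 0.0306 and 0.12. The other 6 calls were lost on each number of neighbours. SPC25 and CENPA were called higher on all 3 numbers, with SPC25 at 0.70 to 0.97 and CENPA at 0.32 to 0.37. SLC35F6 overlaps CENPA on the same strand at 12.2 FPKM, 20.3% of the CENPA value, and reads from the stretch the pair shares cannot be told apart. MKI67 was not called on 20 and 100 neighbours (limma adjusted p = 0.0817 and 0.0626). KIF11 was at 0.12, KIF20B at 0.10 and CDK1 at 0.25 relative to their 50 neighbours, and none of these 3 was called.

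The rest of the mitotic machinery was read from lists covering 143 further genes, of which 28 were called higher and 14 lower. That is 19.6% higher and 9.79% lower, where 11.5% and 12.4% of all genes tested and 13.8% and 14.9% of protein-coding genes were, and the median log2 change was 0.02. Relative to 50 neighbours 22 of the 143 were called higher and 5 lower, where 8.33% and 7.96% of the genes so tested were. The lists that follow can be read against the shares of the fit without centring. Among the 143, the 5 on chromosome 10 had 0 called higher and 3 lower, with a median of -0.36. For all protein-coding genes tested on that chromosome, 2.71% were called higher and 67.3% lower, with a median of -0.52. Among 15 regulators of mitotic entry and exit, 2 (13.3%) were called higher and 1 (6.67%) lower. MASTL (Greatwall), the chromosome 10 kinase that restrains PP2A in mitosis, fell by 0.69 on the log2 scale (limma adjusted p = 0.0011). BORA, the AURKA cofactor on chromosome 13, rose by 0.90 (limma adjusted p = 0.00127), and CCNF, a cyclin that serves as an F-box protein, by 0.32 (limma adjusted p = 0.0156). Relative to neighbours BORA and CCNF were still called on 50, 20 and 100 neighbours, and MASTL, at -0.04 on 50, on none.

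Of 32 kinetochore and inner centromere genes, 10 (31.3%) were called higher and 5 (15.6%) lower, beside the 11.5% and 12.4% of all genes tested. Of protein-coding genes 13.8% were called higher and 14.9% lower, so the share called lower was near that of protein-coding genes. CENPU and CENPQ, which sit together in the inner kinetochore complex that anchors to CENPA chromatin, had the largest falls. CENPU had 81.8, 72.4 and 86.5 FPKM in the shHOTAIR libraries and 229, 212 and 206 FPKM in the shCtrl libraries, far apart (log2 change -1.42, limma adjusted p = 0.0007). CENPQ had 7.95, 7.30 and 6.96 FPKM in shHOTAIR and 21.2, 24.8 and 20.9 FPKM in shCtrl (log2 change -1.47, limma adjusted p = 0.000705). They lie on chromosomes 4 and 6, and relative to their neighbours they were still called lower. CENPU was at -1.10, -0.51 and -1.41 on 50, 20 and 100 neighbours and CENPQ at -1.15, -1.47 and -1.17. CENPI, another inner kinetochore protein, rose by 0.59 (limma adjusted p = 0.00112), with neighbours on the X chromosome at 0.64, and relative to them it was not called. Over the whole list, 10 of the 32 genes were called higher and 2 lower relative to 50 neighbours, where 8.33% and 7.96% of the genes so tested were.

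None of 8 condensin genes, which compact mitotic chromosomes, was called by limma, and none had an unadjusted p under 0.05. NCAPD2, SMC4 and NCAPG had log2 changes of 0.16, 0.21 and -0.21. Of 14 genes of cohesin, the ring that holds sister chromatids together, 1 (7.14%) was called higher and 3 (21.4%) lower. WAPL, which opens the ring, and the ring subunit SMC3, both on chromosome 10, fell by 0.52 and 0.36 on the log2 scale (limma adjusted p = 0.00231 and 0.00373). STAG2, a ring subunit on the X chromosome, rose by 0.72 (limma adjusted p = 0.00631) beside neighbours at 0.70. Relative to their neighbours none of these 3 was called.

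Of 17 APC/C genes, 3 (17.6%) were called higher and 1 (5.88%) lower. The subunits CDC16 and ANAPC10 rose by 0.68 and 0.49 on the log2 scale, and ANAPC4 fell by 0.68 (limma adjusted p = 0.00261, 0.0104 and 0.00851). Relative to their 50 neighbours CDC16 was at -0.08 and ANAPC10 at 0.18, both not called, and ANAPC4 was called on 50 but not on 20 or 100. Of 41 further spindle, centrosome and cytokinesis genes, 7 (17.1%) were called higher and 3 (7.32%) lower. HAUS7, of the augmin complex that branches microtubules, rose by 1.29 on the log2 scale, CKAP2, a spindle pole protein, rose by 0.58, and TACC3, which stabilizes kinetochore fibres, fell by 0.55 (limma adjusted p = 0.00196, 0.00293 and 0.00222). Relative to its neighbours HAUS7 was still called, at 0.70 on 50, while TACC3 was not, at -0.13, and CKAP2 was called on 20 and 100 but not on 50, at 0.05.

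Among 16 genes of the MuvB, B-MYB and E2F factors, which act above the G2 and M genes, 5 (31.3%) were called higher and 1 (6.25%) lower. These stand beside the 11.5% and 12.4% of all genes tested and the 13.8% and 14.9% of protein-coding genes. The median log2 change of the 16 was 0.07. TFDP1, the partner of E2F factors, on chromosome 13, had 177, 179 and 172 FPKM in the shHOTAIR libraries and 79.8, 86.2 and 85.1 FPKM in the shCtrl libraries. It rose by 1.06 on the log2 scale (limma adjusted p = 0.000408), with neighbours at 0.75, and by 0.31 relative to them (limma adjusted p = 0.0122). MYBL2 (B-MYB) had 15.0, 18.9 and 19.3 FPKM in shHOTAIR and 10.5, 10.5 and 10.4 FPKM in shCtrl. It rose by 0.70 (limma adjusted p = 0.00757), and relative to its neighbours by 0.72 (limma adjusted p = 0.00424). LIN54, the MuvB subunit that binds the CHR, rose by 0.61 (limma adjusted p = 0.00275), a call lost relative to 50 or 20 neighbours and kept on 100.

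Genes of DNA replication, the other large group of the cell cycle, were set beside these. Of 30, 4 (13.3%) were called higher and 1 (3.33%) lower, near or under the 11.5% and 12.4% of all genes tested, with a median log2 change of 0.15. Their changes were positive in 26 (86.7%), where 46.5% of all genes tested were. All 3 shHOTAIR values lay above all 3 shCtrl values for 11 of the 30 and below them for 1, where 19.9% and 23.2% of all genes tested did so. PCNA, the polymerase clamp, had 273, 286 and 298 FPKM in shHOTAIR and 173, 180 and 185 FPKM in shCtrl, a rise of 0.67 on the log2 scale (limma adjusted p = 0.00153). MCM10, a replication initiation factor on chromosome 10, fell by 0.99 (limma adjusted p = 0.00436), and MCM3, of the replicative helicase, rose by 0.19 (limma adjusted p = 0.0362). Relative to neighbours PCNA and MCM3 were still called and MCM10 was not.

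**Figure D4:**
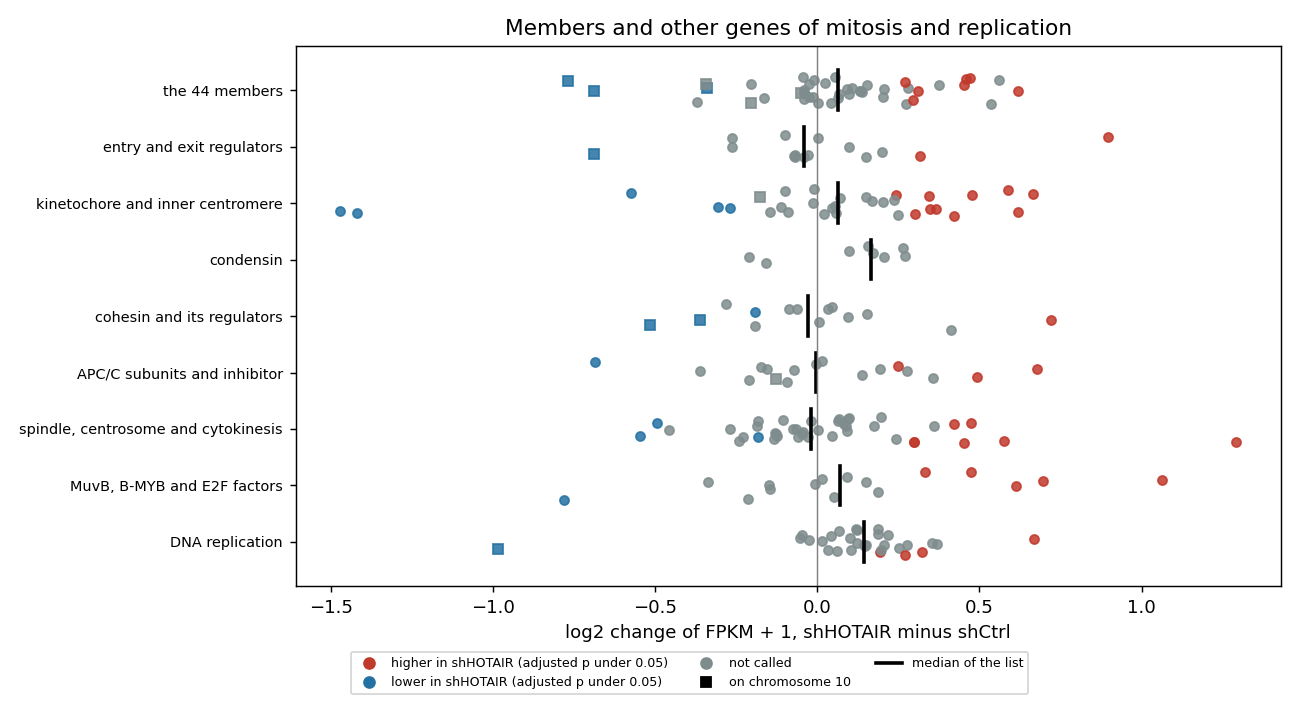
Log2 change of FPKM + 1 (shHOTAIR minus shCtrl, x axis) of the 44 genes and of 8 lists of related genes, 1 point per gene, with squares for chromosome 10 and a black bar for each list's median. The medians stay near 0, between -0.04 for entry and exit regulators and 0.16 for condensin, while single genes such as HAUS7 at 1.29 and CENPQ at -1.47 stand far out.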

How the data were processed

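RNA of 3 shHOTAIR and 3 shCtrl libraries was selected with poly(A) beads, per the labels' protocols. The authors deposited one table of FPKM values. TopHat2 2.0.13, DESeq and the build GRCh38 are named per the submitters' processing notes, with no role or order. The quantifier, its annotation and its strand setting were not given in the sources used here. No read counts were used, and the depth per library is not known.

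Of 65198 rows, 56807 matched GENCODE 29 and 8391 did not. Values were tested as log2(FPKM + 1) for genes averaging 1 FPKM or more, with limma 3.58.1 in R 4.3.3 (intensity trend, Benjamini-Hochberg over all genes tested, threshold 0.05). Tables and figures used Python 3.11.15. Since the labels name 1 derivative per hairpin, p-values measure the spread between repeats of a derivative. Regional centring subtracts, in each library, the mean of the 50 nearest protein-coding genes tested and was fitted on 15359 genes. The main limma fit, without regional centring, was tested on simulated data in which 200 of 15934 genes, drawn from the better expressed, were changed. Of genes given a log2 change of 0.5 or -0.5 there, 24.0% were called in each direction. Of genes given 1 or -1, 70.0% and 72.0% were called, and of genes given 0, 0.0% were called. In the data 3797 genes were called, and the adjusted p depends on how many genes change. These shares are therefore not the sensitivity of the calls reported here.

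Values per library are given for the genes on chromosome 10, up to 14 other members with the smallest p, the highest and the lowest member, and up to 3 genes of each list. BUB3 was added to chromosome 10 by its GENCODE position. A few values outside this rule were chosen after they were seen. The members and lists were chosen with earlier results of these data known. Alternatives were other pseudocounts, filters, scalings and limma settings, a replicate block, each library left out, and regional centring on 50, 20 and 100 neighbours, the last pair chosen after seeing the data.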

Additional observations from a re-analysis of the deposited data

How the results depend on the processing

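Pseudocounts of 0.1 and 0.01, no minimum or a minimum mean of 5 FPKM, median-of-ratios and quantile scaling, and limma without a trend or with robust eBayes gave 5 to 8 members called higher and 3 lower. With each library left out, 3 to 6 members were called higher, 2 to 3 lower, and 2470 to 3159 of all genes, against 3797. Regional centring on 50, 20 and 100 neighbours gave 4, 5 and 4 members higher, 1, 2 and 2 lower, and 2502, 2425 and 2552 genes. Of the 10 calls, 2, 2 and 3 held on these numbers and 0 on all 3, while SPC25 and CENPA were called on each. On chromosome 10 alone, 0 members were called higher and the median log2 change was -0.34, and outside it 0 were called lower.

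No pairing of the libraries by replicate number was visible. Same-numbered libraries had correlations of their deviations of -0.02, 0.01 and -0.03, and no shHOTAIR library correlated best with the shCtrl library of its own number. Such correlations do not show how the repeats were made. With a replicate block 3 members were called higher, 2 lower and 1740 genes in all.

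Directions reversed in a few cases, and the cause was not tested. With each library left out, CCNB1 ranged over -0.0036 to 0.094, negative only without shCtrl 1. MKI67 ranged over -0.11 to 0.062, positive only without shHOTAIR 1 or shCtrl 1. Regional centring on 50, 20 and 100 neighbours put CDK1 at 0.25, 0.29 and 0.24, KIF11 at 0.12, 0.17 and 0.14, KIF20B at 0.104, 0.057 and 0.104 and MKI67 at 0.46, 0.38 and 0.42. It put NCAPG at 0.27, 0.17 and 0.23, SMC3 at 0.078, 0.056 and 0.12 and CENPE at -0.0297, -0.045 and -0.064. On 50 and 20 neighbours CENPI was at -0.0502 and -0.0600 and CDC16 at -0.083 and -0.0899, and on 20 ECT2 was at -0.055.

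The number of fragments per library is unknown and only FPKM were used, so no count model was run. With 3 libraries a group, a p that misses the threshold does not show that a gene was unchanged.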
